A study of Rattus norvegicus with 16 samples.

Results

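The genes described here encode the subunits of the GABA and glutamate receptors, the receptors for the main inhibitory and the main excitatory transmitter of the brain, measured in the rat diencephalon (thalamus and hypothalamus). A gene belonged to the set when at least 1 probe set of the array listed it as its only gene and its symbol was that of a GABA-A, GABA-A rho or GABA-B subunit, of an AMPA, kainate, delta or NMDA subunit, or of a metabotropic glutamate receptor. Each gene was read through 1 probe set, the one with the highest mean log2 signal over the 16 arrays. This gave 42 receptor genes with 70 probe sets, out of 14217 genes and 31099 probe sets on the array. Of the 42 genes, 27 reached the filter on dim probe sets (a mean log2 signal of 7.35 over the 16 arrays, which is a signal of 163) and were tested among 9278 genes. The tested set held 7 of 13 GABA-A genes, 2 of 2 GABA-B genes, 4 of 4 AMPA genes, 4 of 5 kainate genes, 5 of 7 NMDA genes and 5 of 7 metabotropic glutamate receptor genes. None of the 3 GABA-A rho genes and not the single delta gene reached the filter.

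Each of 16 male Sprague-Dawley rats, 5 weeks old at the start, gave 1 diencephalon and 1 array, and each of 4 groups held 4 rats. Rats labelled ZD ate a zinc-deficient diet (0.6 mg zinc per kg) for 10 days. Their controls, labelled PF, were pair-fed a diet with 30 mg zinc per kg for those 10 days, so that food intake was matched. Rats labelled ZR had the deficient diet for 10 days and then the control diet for 6 days. Rats labelled ZRPF were their pair-fed controls and ate the control diet throughout. During the last 6 days the ration of both was set at 13 g. A preference test with 300 mM NaCl was given to all groups, and the rats for the arrays were picked by the submitters as average in body weight, plasma zinc and salt preference, so the spread given here is not that of all rats fed.

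The signals were linear MAS5 values, analysed as log2, and signals are compared between arrays within a gene and not between genes. Arrays of 1 group correlated at 0.974 to 0.987 over all probe sets, and no 2 arrays held identical values. Of 20 listed thalamus markers 18 were tested, and of 17 listed hypothalamus markers 11 were tested, while *Sim1*, *Otp* and *Pomc* of the hypothalamus list lay below the filter. The 10-day and 16-day arrays differed in the ratio of the 3 prime to the 5 prime actin control, whose log2 was 1.49 to 1.73 in PF and 1.37 to 1.67 in ZD but 2.05 to 2.48 in ZRPF and 2.05 to 2.20 in ZR. They also differed in the summed signal of the hypothalamus markers, which was 31488 to 37159 in PF and 29136 to 38989 in ZD but 44290 to 49061 in ZRPF and 41173 to 47052 in ZR. The sum is weighted to the brightest markers. Taken 1 by 1, 4 of the 11 tested markers rose and 0 fell in ZRPF against PF (limma, adjusted p under 0.05). In ZR against ZD 4 of 11 rose and 0 fell.

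GABA-A receptors are chloride channels built of a mixture of alpha, beta and other subunits, while GABA-B receptors are pairs of G-protein-coupled subunits. AMPA receptors carry the fast excitatory current, kainate receptors tune release and excitability, and NMDA receptors pass calcium when glutamate arrives at a depolarised membrane. Metabotropic glutamate receptors act through G proteins on both sides of the synapse. Zinc is stored with glutamate in some synaptic vesicles, and it inhibits NMDA receptors, most strongly those with the subunit encoded by *Grin2a*, as well as many GABA-A receptors. In the hypothalamus and thalamus these receptors set the balance of excitation and inhibition in circuits of feeding, salt intake and sensory relay.

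**Figure D1:**
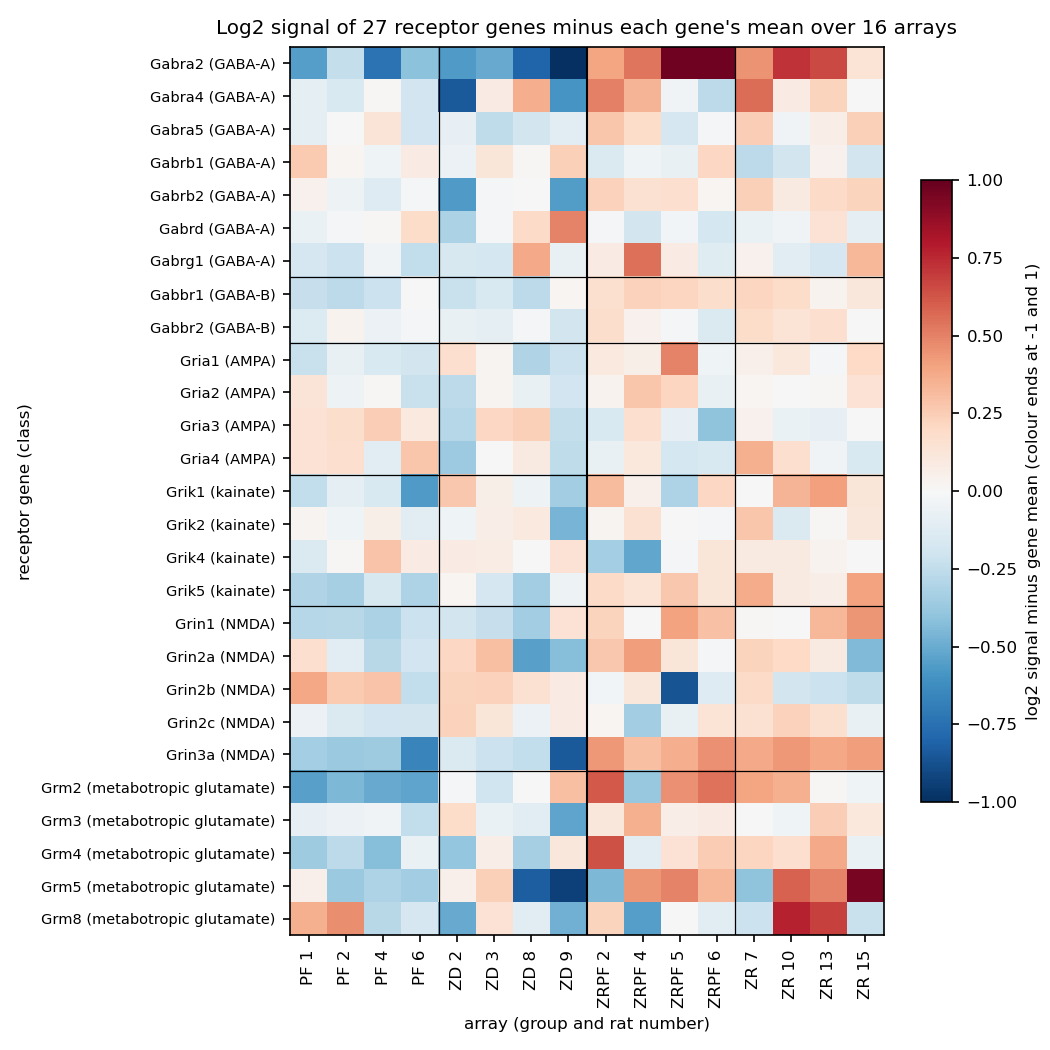
The 27 tested receptor genes are rows, ordered by class, and the 16 arrays are columns, ordered by group; colour is the log2 signal minus the gene's mean over the 16 arrays, with colours ending at -1 and 1. The *Gabra2* and *Grin3a* rows are blue in all 8 arrays of the 10-day groups (PF, ZD) and red in all 8 arrays of the 16-day groups (ZRPF, ZR).

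The comparison of ZD with PF asked what 10 days without zinc did beyond the reduced food intake. No receptor gene passed the threshold, an adjusted p under 0.05, in either direction. Among the 27 tested genes, 13 differences lay above 0 (55.6% of all genes did) and 14 below, with a median of -0.004 on the log2 scale beside 0.017 over all 9278 genes, and they ran from -0.33 for *Grm8* to 0.52 for *Grm2*. With limma and Benjamini-Hochberg adjustment over all tested probe sets, 0 of 27 passed an adjusted p of 0.05, as did 0.0% of all genes. Before adjustment, 3 of 27 had a p under 0.05, against 7.94% of all genes. The 95% intervals of the 27 differences reached a median of 0.25 to either side (0.14 to 0.60), which is the precision that 4 arrays a group gave. RNA came from whole diencephalon, in which fewer cells of a type and less RNA per cell cannot be told apart.

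The metabotropic receptor gene *Grm2*, which encodes a presynaptic autoreceptor that lowers glutamate release, had the smallest p. Its log2 signal was 7.57, 7.67, 7.61 and 7.59 in PF rats 1, 2, 4 and 6 and 8.10, 7.92, 8.11 and 8.42 in ZD rats 2, 3, 8 and 9. Every ZD array was above every PF array. The difference was 0.52 ± 0.18 (SE, log2; 95% interval 0.15 to 0.90), with an adjusted p of 0.483 (limma), and it was 0.43 to 0.60 with 1 array left out in turn. The other 4 tested genes of this class gave differences of -0.33 ± 0.24 (*Grm8*), -0.12 ± 0.29 (*Grm5*), -0.02 ± 0.11 (*Grm3*) and 0.14 ± 0.15 (*Grm4*).

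Of the 5 NMDA genes, 4 were above 0 in ZD, with *Grin2b* at only 0.0025 among them. *Grin2c*, a subunit of channels with weak magnesium block, read 10.12, 10.04, 9.99 and 10.00 in PF and 10.41, 10.30, 10.12 and 10.26 in ZD. The groups did not overlap, but the lowest ZD signal (1115, rat 8) and the highest PF signal (1112, rat 1) were nearly equal. The difference was 0.24 ± 0.09 (adjusted p = 0.563, limma). *Grm2* and *Grin2c* were the 2 of 27 genes whose ZD and PF arrays did not overlap, both higher in ZD, against 4.35% of all genes in either direction and 2.92% in that direction. *Grin1*, the obligatory NMDA subunit, read 9.54, 9.55, 9.51 and 9.61 in PF and 9.64, 9.60, 9.48 and 9.97 in ZD, a difference of 0.12 ± 0.12. *Grin2a*, the subunit with the high-affinity zinc site, read 8.01, 7.73, 7.56 and 7.65 in PF and 8.05, 8.14, 7.30 and 7.41 in ZD. ZD rats 2 and 3 were thus at the top and ZD rats 8 and 9 at the bottom of the 8 arrays, and the difference was -0.01 ± 0.19. *Grin2b*, the subunit most used in young forebrain, read 8.75, 8.63, 8.65 and 8.12 in PF and 8.59, 8.60, 8.52 and 8.45 in ZD, a difference of 0.00 ± 0.18.

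AMPA and GABA-A genes lay mostly below 0 in ZD, 3 of 4 and 5 of 7, with *Gabrb1* at only -0.0041 among the latter. *Gria4*, an AMPA subunit of fast channels common in the thalamus, read 9.64, 9.66, 9.38 and 9.77 in PF and 9.13, 9.49, 9.58 and 9.24 in ZD, a difference of -0.25 ± 0.12 (adjusted p = 0.637, limma). *Gria2*, whose edited subunit keeps AMPA channels closed to calcium, read 12.26, 12.08, 12.14 and 11.91 in PF and 11.87, 12.16, 12.06 and 11.94 in ZD, a difference of -0.09 ± 0.09. *Gabrb2*, a beta subunit of many GABA-A receptors, read 12.26, 12.17, 12.09 and 12.20 in PF and 11.65, 12.20, 12.22 and 11.66 in ZD, a difference of -0.25 ± 0.11 (adjusted p = 0.591, limma). Its lower mean in ZD came from rats 2 and 9, while rats 3 and 8 lay within the PF range. The same pair of ZD rats was lowest for *Gria3* (10.89 and 10.94, against 11.27 to 11.42 in PF) and for *Gria4*. No marker of another tissue or cell type among the lists named next passed in ZD against PF. Of 18 thalamus markers 3 lay above 0, with a median of -0.11 (summed signal 48259 to 55749 in PF, 44165 to 51299 in ZD). Some further lists lay above 0 throughout: 8 of 8 meninges and mural cell markers (median 0.34; summed signal 3578 to 4301 in PF, 4005 to 6579 in ZD), 6 of 6 of the choroid plexus (0.70; 950 to 2070 and 1706 to 11501), 7 of 7 of the striatum (0.22; 3768 to 6268 and 3548 to 7221), 7 of 7 of ependyma and tanycytes (0.17; 3328 to 3778 and 4087 to 4776) and 3 of 3 of the cortex and hippocampus (0.125). Other lists did not. Above 0 were 5 of 7 microglia, 5 of 7 endothelium and 4 of 11 general neuronal markers. For astrocytes it was 1 of 9, for oligodendrocytes 3 of 9, for their precursors 1 of 4 and for the cerebellum 1 of 4. Of the pituitary and blood lists 1 marker each was tested, and both lay below 0. Their part in the receptor differences was not tested. With the mean of the thalamus markers as a covariate, 0 of 27 receptor genes passed as well.

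After 6 days on the control diet, ZR rats were set against ZRPF rats, which asked what remained of the past deficiency. No receptor gene passed the threshold here either: 0 of 27 in limma, against 0.0108% of all genes, and 0 of 27 had an unadjusted p under 0.05, against 4.81% of all genes. Differences were above 0 for 16 genes (46.9% of all genes) and below for 11, with a median of 0.04 (-0.008 over all genes), and ran from -0.22 for *Gabra2* to 0.36 for *Grm8*. In none of the 27 genes were the ZR and ZRPF arrays apart, against 2.82% of all genes.

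The 4 genes of smallest p came from 4 classes. *Grin2c* read 10.20, 9.83, 10.11 and 10.32 in ZRPF rats 2, 4, 5 and 6 and 10.33, 10.41, 10.34 and 10.11 in ZR rats 7, 10, 13 and 15, a difference of 0.18 ± 0.09 (adjusted p = 0.927, limma). *Grik4*, a high-affinity kainate subunit, read 7.74, 7.56, 8.06 and 8.20 in ZRPF and 8.17, 8.17, 8.11 and 8.08 in ZR, a difference of 0.24 ± 0.13. The ZRPF arrays spread widely here, while the ZR arrays lay close together. *Gabbr2*, the GABA-B subunit that couples to the G protein, read 12.49, 12.36, 12.30 and 12.17 in ZRPF and 12.50, 12.45, 12.48 and 12.31 in ZR, a difference of 0.11 ± 0.07. *Gabrb1*, another GABA-A beta subunit, read 11.34, 11.44, 11.41 and 11.69 in ZRPF and 11.22, 11.30, 11.52 and 11.30 in ZR, a difference of -0.14 ± 0.09. In all 4 genes the arrays of ZR and ZRPF overlapped.

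The zinc-sensitive and channel-setting subunits fixed for description were also close in ZR and ZRPF. *Grin1* read 10.05, 9.83, 10.23 and 10.12 in ZRPF and 9.84, 9.83, 10.16 and 10.27 in ZR, a difference of -0.04 ± 0.12. For *Grin2a* the arrays read 8.11, 8.26, 7.96 and 7.82 in ZRPF and 8.06, 8.04, 7.93 and 7.40 in ZR, a difference of -0.18 ± 0.19. *Grin2b* read 8.34, 8.48, 7.50 and 8.24 in ZRPF and 8.56, 8.18, 8.15 and 8.11 in ZR, a difference of 0.11 ± 0.18 that rested on the low ZRPF rat 5 and was -0.10 without it. *Gria2* read 12.17, 12.41, 12.35 and 12.06 in ZRPF and 12.15, 12.13, 12.14 and 12.28 in ZR, a difference of -0.07 ± 0.09.

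Whether the difference between deficient and pair-fed rats itself changed with recovery was tested as an interaction, the ZR minus ZRPF difference minus the ZD minus PF difference. None of 27 genes passed (0.0% of all genes), and 2 of 27 had an unadjusted p under 0.05 in limma, against 6.47% of all genes. *Grm2* gave -0.65 ± 0.25, since its difference was 0.52 in ZD against PF and -0.13 in ZR against ZRPF. *Gria4* gave 0.41 ± 0.17 and *Grm8* 0.70 ± 0.34, both with a negative difference in ZD against PF and a positive one in ZR against ZRPF. A further probe set turned these directions: that of *Grm8* gave -0.23 ± 0.14 in ZR against ZRPF and -0.20 ± 0.20 in the interaction, and that of *Gria4* gave 0.11 ± 0.18 in ZD against PF. For *Gabrb2* the interaction was 0.29 ± 0.15. Their adjusted p-values in limma were 0.747 for the first 3 and 0.756 for *Gabrb2*.

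The mean of both differences kept 0 of 27 genes past the threshold (0.0216% of all genes), and 1 of 27 had an unadjusted p under 0.05 in limma, against 6.62% of all genes. This gene, *Grin2c*, had a mean difference of 0.21 ± 0.07 (unadjusted p = 0.00596, adjusted p = 0.55, limma), and it was above 0 in both experiments. *Gabra2* gave -0.24 ± 0.12, *Grik1* (a kainate subunit) 0.20 ± 0.11 and *Grm2* 0.20 ± 0.13. In ZD rats *Grik1* read 7.96, 7.75, 7.64 and 7.34 beside 7.44, 7.59, 7.54 and 7.12 in PF, and in ZR rats it read 7.69, 8.03, 8.10 and 7.81 beside 8.01, 7.74, 7.38 and 7.90 in ZRPF. The 2 experiments share no array, and the 27 genes had the same sign in both in 12 cases, with a Pearson correlation of -0.27 across genes, where all 9278 genes had the same sign in 47.4% and a correlation of 0.0183. Genes are not independent replicates, so these are given as a description.

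**Figure D2:**
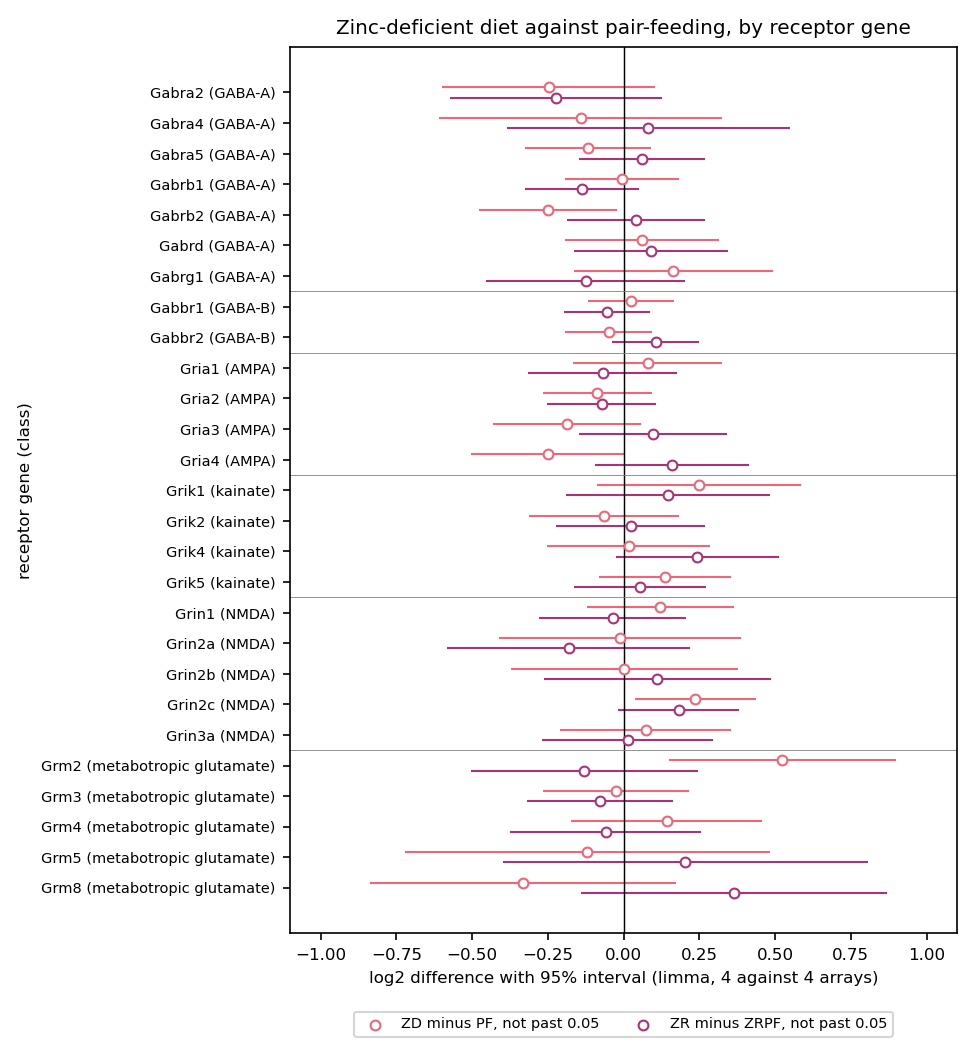
Log2 differences of the 27 tested receptor genes, with 95% intervals from limma (4 against 4 arrays), for ZD minus PF and for ZR minus ZRPF; open circles mark an adjusted p of 0.05 or more. All circles are open, and the largest differences are those of *Grm2* (0.52) in ZD minus PF and of *Grm8* (0.36) in ZR minus ZRPF.

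Some receptor genes rose from the 10-day to the 16-day experiment. The pair-fed rats of the 2 experiments (ZRPF against PF) and the rats that had been deficient (ZR against ZD) give this step in separate rats, from arrays that are not shared. Age, days on the diet, the ration, the return of zinc (in ZR) and the experiment itself cannot be told apart in it. In ZRPF against PF, 7 of 27 receptor genes rose and 0 fell (limma, adjusted p under 0.05), where 15.4% of all genes passed, 9.25% upwards and 6.13% downwards. In ZR against ZD, 7 of 27 rose and 0 fell, where 16.6% of all genes passed, 8.16% upwards and 8.42% downwards. The 7 of 27 are 25.9% in each. Without ZD rats 8 and 9, which were low for *Grin2a* and *Grm5*, 4 of 27 rose in ZR against ZD (*Gabra2*, *Grin3a*, *Gabbr1* and *Gabrb2*). Medians over the 27 genes were 0.24 and 0.21 on the log2 scale, beside -0.007 and -0.022 over all genes, and 20 and 22 of 27 genes lay above 0, against 48.5% and 45.9% of all genes. The first median was 0.096 among the 10348 brightest probe sets (16 receptor genes) and 0.156 with each array centred on its median, and with the actin ratio as a covariate the medians were 0.174 and 0.144. *Gabra4* is counted among the 27 although it reached the filter only through the 16-day groups. Before adjustment, 11 and 10 of 27 had a p under 0.05 in limma, against 30.4% and 31.1% of all genes. The arrays did not overlap in 8 genes in the first comparison (21.5% of all genes, 11.9% upwards) and in 7 in the second (19.3%, 8.53% upwards), the 16-day arrays being higher in each of these genes.

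*Gabra2*, *Grin3a*, *Gabbr1*, *Grik5* and *Grin1* rose in both comparisons, and they belong to 4 receptor classes. Across the 27 genes the sign was the same in 25 and the correlation of the differences was 0.72. Over all 9278 genes the sign was the same in 72.4% and the correlation was 0.69. In 4 of 27 genes (14.8%; *Gabra2*, *Gabbr1*, *Grik5* and *Grin3a*) the arrays were apart in the same direction in both comparisons. The 16-day arrays were higher in each of these 4. Over all genes this share was 9.45%, with both directions counted.

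**Figure D3:**
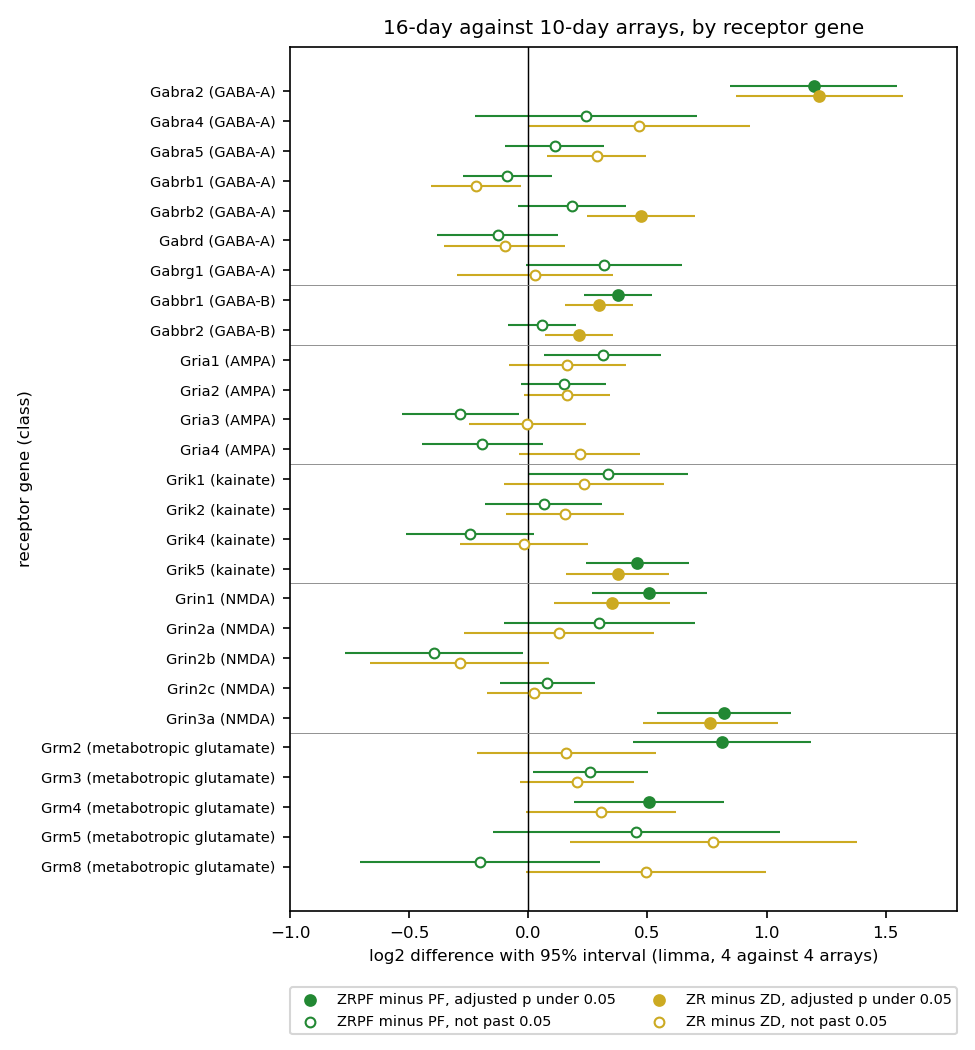
Log2 differences of the 27 tested receptor genes with 95% intervals from limma, for ZRPF minus PF and ZR minus ZD (4 against 4 arrays each); filled circles mark an adjusted p under 0.05. The 7 filled circles of each comparison lie right of 0, and *Gabra2* is farthest right in both, at 1.20 and 1.22.

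Among the GABA-A genes, *Gabra2*, which encodes the alpha subunit of receptors at the axon initial segment and of many forebrain synapses, changed most. It read 7.69, 8.00, 7.50 and 7.83 in PF and 7.67, 7.73, 7.44 and 7.19 in ZD, against 8.63, 8.77, 9.21 and 9.21 in ZRPF and 8.69, 8.96, 8.90 and 8.37 in ZR. All 8 arrays of the 16-day groups were above all 8 of the 10-day groups. The rise was 1.20 ± 0.17 (2.29-fold, adjusted p = 0.00011) in ZRPF against PF and 1.22 ± 0.17 (2.33-fold, adjusted p = 9.43e-05) in ZR against ZD, both by limma. The ZD mean of *Gabra2*, 7.51, lay close to the filter of 7.35. *Gabrb2* rose in ZR against ZD by 0.47 ± 0.11 (adjusted p = 0.00567, limma), from 11.65, 12.20, 12.22 and 11.66 in ZD to 12.46, 12.31, 12.41 and 12.44 in ZR. In the pair-fed rats its difference was 0.18 ± 0.11 (adjusted p = 0.27, limma), with 12.45, 12.37, 12.39 and 12.24 in ZRPF. The interaction above is also the test of the difference between these values, and it did not pass. The other 5 tested GABA-A genes did not pass in either comparison, and *Gabra5*, an alpha subunit of extrasynaptic receptors, came nearest with 0.29 ± 0.10 in ZR against ZD (adjusted p = 0.0526, limma).

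*Gabra2* lies in a cluster on chromosome 14 between *Gabra4* and *Gabrg1*, with *Gabrb1* on the far side of *Gabra4* (gene order of GRCr8). *Gabra4* reached the filter only through the 16-day groups, with group means of 7.18 to 7.65, so its difference between the experiments is given as a value only. In ZRPF against PF the 4 genes differed by -0.09 (*Gabrb1*), 0.24 (*Gabra4*), 1.20 (*Gabra2*) and 0.32 (*Gabrg1*). In ZR against ZD they differed by -0.22, 0.46, 1.22 and 0.03. *Gabra2* passed the threshold in both comparisons, and *Gabrb1* and *Gabrg1* in neither (limma). Whether the neighbours differed from *Gabra2* was not tested, and the interval of *Gabrg1* in ZRPF against PF was -0.01 to 0.65.

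Of the GABA-B genes, *Gabbr1*, the subunit that binds GABA, rose in both comparisons. It read 12.74, 12.71, 12.76 and 12.97 in PF and 12.75, 12.82, 12.71 and 12.99 in ZD, against 13.13, 13.20, 13.19 and 13.15 in ZRPF and 13.19, 13.16, 13.01 and 13.09 in ZR. The rise was 0.38 ± 0.07 (adjusted p = 0.000995) and 0.30 ± 0.07 (adjusted p = 0.0058), both by limma, and the groups did not overlap. *Gabbr2*, its partner, read 12.18, 12.35, 12.26 and 12.30 in PF and 12.24, 12.22, 12.30 and 12.13 in ZD. It rose in ZR against ZD by 0.21 ± 0.07 (adjusted p = 0.0375, limma) and differed by 0.06 ± 0.07 in ZRPF against PF. The *Gabbr2* call was lost without ZD rat 2 (adjusted p = 0.0636), 3 (0.0673) or 9 (0.104) and without ZR rat 7 (0.0996), 10 (0.0762) or 13 (0.084). It was also lost with median centring (adjusted p = 0.0988) and with only the arrays of the compared groups fitted (0.0539), both by limma. Of 22 alternatives, with arrays left out or the processing changed, 7 kept the call.

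Of the ionotropic glutamate receptor genes, *Grin3a* and *Grin1* (NMDA) and *Grik5* (kainate) rose in both comparisons, while none of the 4 AMPA genes passed. *Grin3a*, whose subunit lowers the calcium flow of NMDA receptors, read 7.49, 7.46, 7.48 and 7.17 in PF, 7.69, 7.62, 7.59 and 6.99 in ZD, 8.27, 8.13, 8.20 and 8.29 in ZRPF and 8.21, 8.27, 8.22 and 8.25 in ZR. All 16-day arrays were above all 10-day arrays, and the 4 ZR arrays lay close together. The rise was 0.82 ± 0.13 (1.77-fold, adjusted p = 0.000456) and 0.76 ± 0.13 (1.70-fold, adjusted p = 0.000898), both by limma. Its 10-day group means, 7.40 in PF and 7.47 in ZD, lay close to the filter of 7.35.

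*Grin1* rose by 0.51 ± 0.12 (adjusted p = 0.00589) in ZRPF against PF and by 0.35 ± 0.12 (adjusted p = 0.0429) in ZR against ZD, both by limma. The array values given above show no overlap between PF and ZRPF, whereas ZD rat 9 (9.97) lay above 2 of the 4 ZR rats. In ZR against ZD its call was lost without ZD rat 2 (adjusted p = 0.085), 3 (0.0898) or 8 (0.112) and without ZR rat 13 (0.11) or 15 (0.137). It was also lost with median centring (adjusted p = 0.0705) and with only the arrays of the compared groups fitted (0.0924), both by limma. Of 22 alternatives, 8 kept the call. The other NMDA genes did not pass: *Grin2a* differed by 0.30 ± 0.19 and 0.13 ± 0.19, *Grin2b* by -0.40 ± 0.18 and -0.29 ± 0.18, and *Grin2c* by 0.08 ± 0.09 and 0.02 ± 0.09. For *Grin2b* both values were thus below 0 (adjusted p = 0.141 and 0.284, limma) where those of *Grin1* and *Grin3a* were above.

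*Grik5*, a kainate subunit that forms channels together with other kainate subunits, read 8.24, 8.21, 8.38 and 8.23 in PF, 8.56, 8.37, 8.19 and 8.49 in ZD, 8.73, 8.68, 8.81 and 8.66 in ZRPF and 8.91, 8.63, 8.61 and 8.94 in ZR. The arrays did not overlap in either comparison, and the rise was 0.46 ± 0.10 (adjusted p = 0.00573) and 0.37 ± 0.10 (adjusted p = 0.0181), both by limma. The second call was lost without ZD rat 8 (adjusted p = 0.056), ZR rat 7 (0.0611) or ZR rat 15 (0.0619), and 13 of 21 alternatives kept it. The other 3 tested kainate genes did not pass. Of the AMPA genes, *Gria1* had 0.31 ± 0.12 in ZRPF against PF (adjusted p = 0.0776, limma) and *Gria3* had -0.29 ± 0.12 (adjusted p = 0.105, limma), and in ZR against ZD the 4 AMPA genes lay between -0.004 and 0.22.

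The metabotropic receptor genes *Grm2* and *Grm4*, both of presynaptic receptors that act through inhibitory G proteins, rose in ZRPF against PF and did not pass in ZR against ZD. *Grm2* read 8.73, 7.74, 8.57 and 8.66 in ZRPF and 8.51, 8.47, 8.13 and 8.07 in ZR, and its difference was 0.81 ± 0.18 (adjusted p = 0.00458) and 0.16 ± 0.18 (adjusted p = 0.579), both by limma. The PF arrays of *Grm2* stand in 2 of these comparisons, ZD against PF and ZRPF against PF, so its higher values in ZD and in ZRPF are not separate observations. Without ZRPF rat 4, which lay apart from the other ZRPF rats, the first difference was 1.04. *Grm4* read 8.59, 8.68, 8.52 and 8.88 in PF, 8.56, 9.01, 8.61 and 9.06 in ZD, 9.58, 8.84, 9.09 and 9.20 in ZRPF and 9.16, 9.11, 9.32 and 8.88 in ZR. It differed by 0.51 ± 0.15 (adjusted p = 0.0285, limma) and 0.30 ± 0.15. The *Grm4* call was lost without PF rat 1 (adjusted p = 0.073), 2 (0.0588) or 4 (0.075) and without ZRPF rat 2 (0.1) or 6 (0.0607). Of 23 alternatives, 13 kept it. *Grm5*, a postsynaptic receptor coupled to calcium release, was 0.78 ± 0.29 higher in ZR against ZD, with an adjusted p of 0.0704 (limma) and a wide spread in ZR (7.66 to 9.01).

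**Figure D4:**
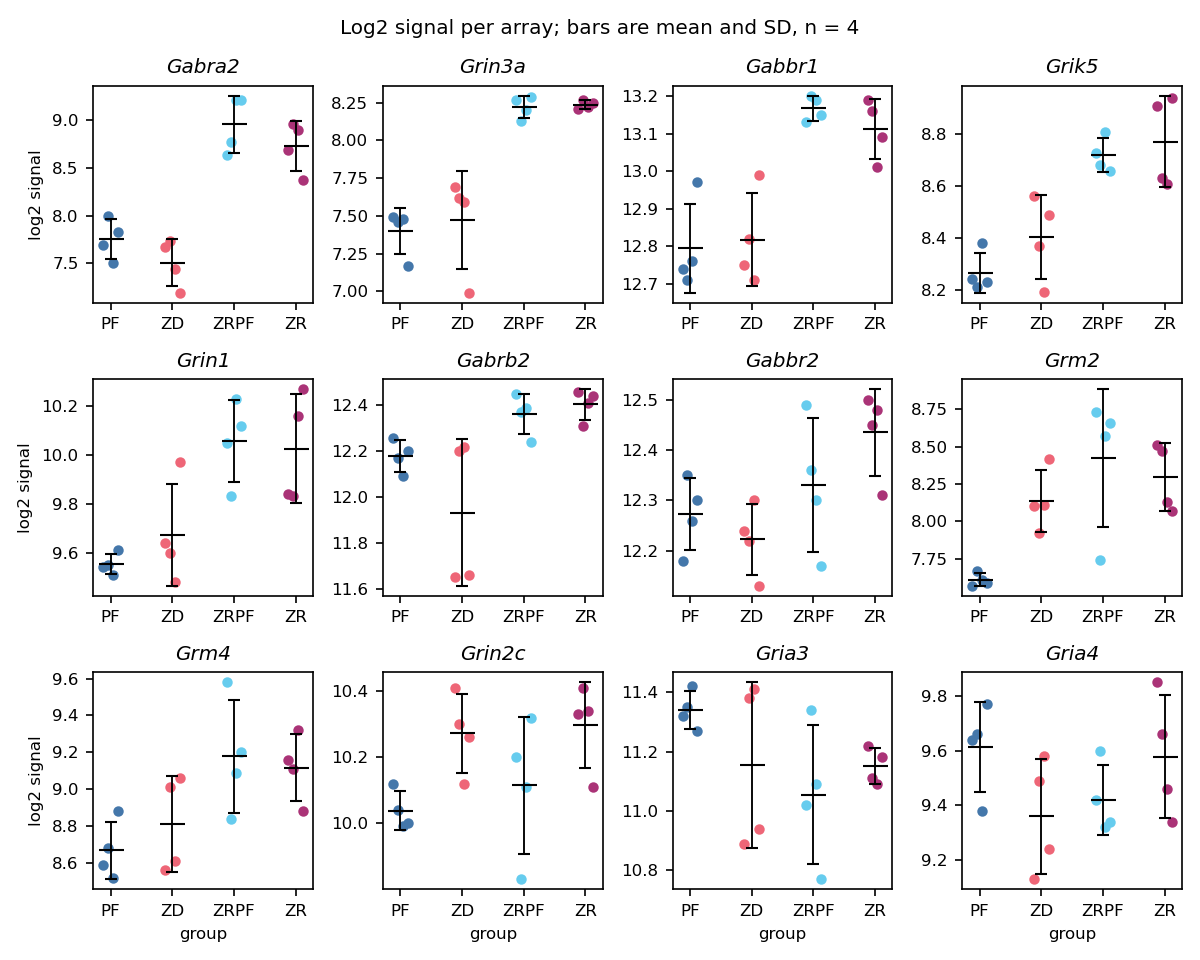
Log2 signal of 12 receptor genes in each of the 16 arrays, by group (each dot 1 rat; bars are the mean and SD, n = 4; each panel has its own scale). The 16-day groups (ZRPF, ZR) lie above the 10-day groups (PF, ZD) without overlap for *Gabra2*, *Grin3a*, *Gabbr1* and *Grik5*, and ZD rats 2 and 9 lie low for *Gabrb2*, *Gria3* and *Gria4*.

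The actin ratio, the hypothalamus markers and the thalamus markers were each entered as a covariate. For the markers this was the mean of their log2 signals, centred per gene, and not the summed signal given above. The meninges and mural cell markers were not entered: 4 of 8 fell and 0 rose in ZR against ZD (summed signal 4005 to 6579 in ZD, 3239 to 3679 in ZR), none of 8 passed in ZRPF against PF, and their part in the receptor differences was not tested. With the log2 actin ratio, which did not overlap between the experiments, 0 of 27 receptor genes passed in either comparison. *Gabra2* then differed by 1.63 ± 0.38 (adjusted p = 0.127) and 1.63 ± 0.36 (adjusted p = 0.099), and *Grin3a* by 0.77 ± 0.32 (adjusted p = 0.51) and 0.71 ± 0.30 (adjusted p = 0.44), all by limma. A ratio that separates the experiments this fully takes up much of the same contrast, so both cannot be told apart. With the hypothalamus markers as the covariate, 3 of 27 genes passed in ZRPF against PF and 4 in ZR against ZD. *Gabra2* differed by 1.35 (adjusted p = 0.00932) and 1.36 (adjusted p = 0.00402), and *Grin3a* by 1.09 (adjusted p = 0.0054) and 1.02 (adjusted p = 0.00396), all by limma. *Gabbr1*, *Grik5* and *Grin1* did not pass in either comparison in that fit. Of 18 thalamus markers 1 rose and 4 fell in ZRPF against PF (median -0.135), and 1 rose and 0 fell in ZR against ZD (0.03). With these as the covariate, *Gabra2* differed by 1.19 (adjusted p = 0.000774) and 1.23 (adjusted p = 0.000236) by limma. *Grin3a* then differed by 0.73 (adjusted p = 0.00379) and 0.82 (adjusted p = 0.000729), also by limma.

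Sequences upstream of the genes that rose in both comparisons are shown because these genes moved together and because a metal-responsive transcription factor, MTF-1, reads zinc through a short DNA element. Windows of 250 bases before the annotated gene start were taken from RefSeq (GRCr8), which held 30 of the 42 receptor genes but not *Gabra2*. The core of the element was searched on both strands as TGCACNC and TGCGCNC, with overlaps allowed, and capitals mark each match. The windows are those of *Gabbr1* (chr20:1499237-1499486, minus strand), *Grik5* (chr1:89794910-89795159, minus strand), *Grin1* (chr3:28528755-28529004, minus strand) and *Grin3a* (chr5:69001559-69001808, minus strand), each printed 5′ to 3′ in the direction of the gene.
Gabbr1: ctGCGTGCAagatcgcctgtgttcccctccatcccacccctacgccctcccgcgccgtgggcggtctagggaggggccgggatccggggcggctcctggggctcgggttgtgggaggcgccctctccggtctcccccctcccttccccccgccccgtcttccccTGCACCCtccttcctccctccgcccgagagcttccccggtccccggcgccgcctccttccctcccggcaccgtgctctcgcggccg
Grik5: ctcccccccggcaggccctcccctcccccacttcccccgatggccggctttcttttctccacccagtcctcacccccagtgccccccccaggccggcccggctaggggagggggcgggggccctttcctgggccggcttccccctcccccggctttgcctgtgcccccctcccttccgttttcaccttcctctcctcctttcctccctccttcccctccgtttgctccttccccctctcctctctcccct
Grin1: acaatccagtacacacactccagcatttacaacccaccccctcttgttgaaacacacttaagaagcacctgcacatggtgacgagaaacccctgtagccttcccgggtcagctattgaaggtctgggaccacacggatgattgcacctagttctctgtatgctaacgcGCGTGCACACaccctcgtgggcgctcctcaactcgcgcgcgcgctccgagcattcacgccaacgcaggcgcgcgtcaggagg
Grin3a: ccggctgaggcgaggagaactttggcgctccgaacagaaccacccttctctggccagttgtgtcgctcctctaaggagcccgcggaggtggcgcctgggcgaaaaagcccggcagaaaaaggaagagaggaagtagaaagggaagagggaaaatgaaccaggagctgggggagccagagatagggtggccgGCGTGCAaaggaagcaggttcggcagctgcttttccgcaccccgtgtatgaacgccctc

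*Gabbr1* held 2 matches, 248 and 86 bases before the start, *Grin1* held 2 overlapping matches, 82 and 79 bases before it, *Grin3a* held 1 at 59 bases, and *Grik5* held none. Over the receptor genes with a window, 13 of 30 (43.3%) held at least 1 match, against 20.6% of 33469 windows of the same length in the table. The receptor windows were richer in G and C, with a median of 58.6% against 51.2%. A match of these letters is not a binding site, and no zinc difference in these genes passed the threshold.

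For 7 of the tested genes, 9 further probe sets could be tested, and they did not always follow the brightest one. Probe sets of 1 gene can read different transcript ends. In ZRPF against PF, 6 of 9 had the sign of the brightest probe set, and 6 of 9 in ZR against ZD. In the zinc comparisons 5 of 9 did so in ZD against PF and 4 of 9 in ZR against ZRPF. *Gabbr1* had 3 further probe sets, which gave -0.18 ± 0.16, 0.12 ± 0.08 and 0.05 ± 0.39 in ZRPF against PF and -0.34 ± 0.16, 0.23 ± 0.08 and 1.08 ± 0.39 in ZR against ZD, none past the threshold. *Grin1* had 1 further probe set, with 0.01 ± 0.14 and -0.32 ± 0.14, beside 0.51 and 0.35 for the brightest. As a mean over its tested probe sets, *Gabbr1* differed by 0.09 in ZRPF against PF (adjusted p = 0.583, limma). *Grin1* then differed by 0.26 in ZRPF against PF (adjusted p = 0.0553, limma) and by 0.02 in ZR against ZD (adjusted p = 0.912, limma). *Gria3* and *Grm8* showed the reverse, a further probe set that rose where the brightest did not. The further *Gria3* probe set rose by 0.66 ± 0.18 in ZR against ZD (adjusted p = 0.0158, limma) where the brightest gave -0.004, and that of *Grm8* rose by 0.46 ± 0.14 in ZRPF against PF (adjusted p = 0.0353, limma) where the brightest gave -0.20. *Gabra2*, *Grin3a* and *Grik5* had no further tested probe set.

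**Figure D5:**
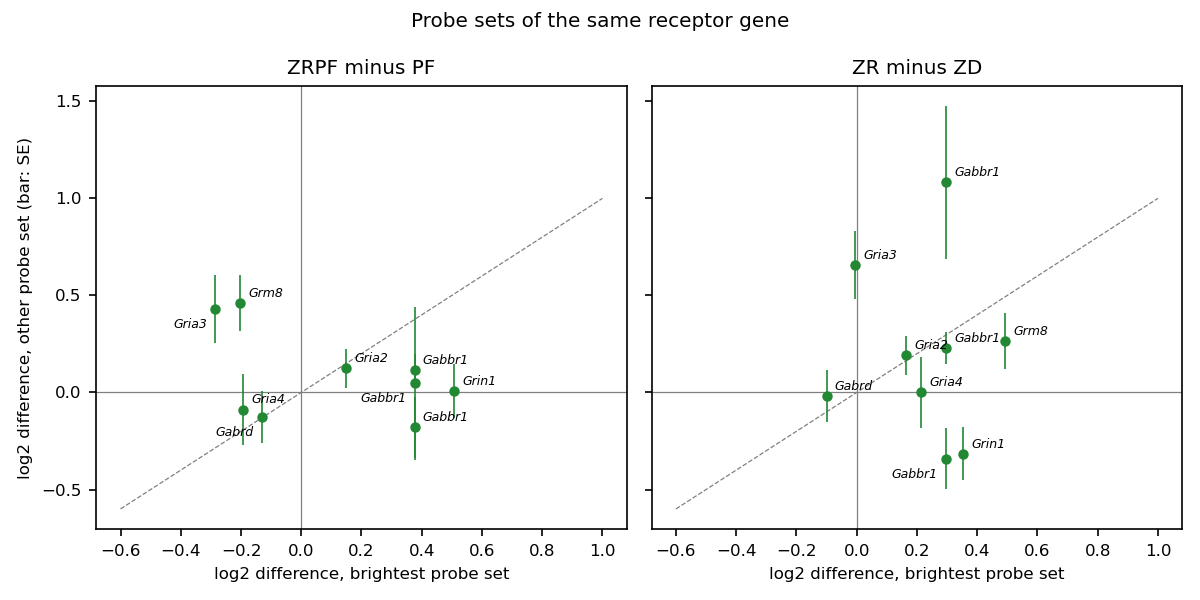
Each dot is 1 further tested probe set of a receptor gene, with the log2 difference of the gene's brightest probe set on the x axis and its own on the y axis (bars are SE; the dashed line is equality), for ZRPF minus PF and ZR minus ZD. The further probe sets of *Gabbr1* and *Grin1* spread from -0.34 to 1.08, and that of *Gria3* lies above 0.4 in both panels.

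The genes around the receptors gave a similar picture. In ZD against PF and in ZR against ZRPF, none of the listed genes for transmitter synthesis and transport, auxiliary subunits, postsynaptic scaffolds, chloride cotransporters, glycine receptors or synaptic zinc passed the threshold (limma), and the same held for the interaction and the mean of both. For GABA synthesis and transport, the 2 smallest p-values in ZD against PF were those of *Slc32a1*, the vesicular GABA transporter (0.08 ± 0.13), and *Gad1*, which makes GABA (-0.05 ± 0.10). For glutamate they were those of *Slc38a2*, a glutamine transporter (-0.50 ± 0.12, adjusted p = 0.224, limma), and of the glutaminase gene *Gls2* (0.10 ± 0.07). The scaffold gene *Dlg4*, which anchors NMDA receptors as PSD-95, differed by 0.31 ± 0.11 (adjusted p = 0.503, limma) and *Dlgap3* by 0.21 ± 0.13. Among auxiliary subunits *Shisa9* differed by -0.17 ± 0.10 and *Neto2* by -0.17 ± 0.13, and among inhibitory scaffold genes *Plcl1* by -0.19 ± 0.09 and *Gabarapl1* by 0.13 ± 0.07. *Slc39a10*, a zinc importer, differed by 0.25 ± 0.07 (adjusted p = 0.265, limma) and *Slc30a3*, which loads zinc into synaptic vesicles, by 0.04 ± 0.14. *Slc12a2* and *Slc12a5*, which set the chloride gradient of GABA-A receptors, differed by -0.11 ± 0.08 and 0.09 ± 0.07, and the glycine receptor genes *Glrb* and *Glra2* by -0.15 ± 0.12 and -0.02 ± 0.11.

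In ZR against ZRPF the smallest p-values of each list belonged to differences of -0.16 ± 0.13 (*Abat*) and -0.08 ± 0.10 (*Gad1*) for GABA, and of -0.12 ± 0.07 (*Got2*) and -0.12 ± 0.08 (*Glul*) for glutamate. For the receptor partners they were -0.16 ± 0.10 (*Shisa9*) and -0.21 ± 0.13 (*Neto2*), -0.14 ± 0.08 (*Dlg1*) and 0.53 ± 0.53 (*Homer2*), and -0.12 ± 0.09 (*Iqsec3*) and -0.06 ± 0.08 (*Kctd12*). The remaining lists held 2 tested genes each, with 0.03 ± 0.08 (*Slc12a2*) and 0.01 ± 0.07 (*Slc12a5*), 0.11 ± 0.12 (*Glrb*) and 0.08 ± 0.11 (*Glra2*), and 0.09 ± 0.14 (*Slc30a3*) and 0.00 ± 0.07 (*Slc39a10*). Adjusted p-values of these genes in limma were 0.927 or more.

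In the step from 10 to 16 days, some partners of the receptors also rose. Their counts are read against the 15.4% and 16.6% of all genes that passed in these comparisons, and the shift of the actin ratio given above applies to them too. The list of auxiliary subunits of ionotropic glutamate receptors also held the pentraxin genes *Nptx1* and *Nptxr*. Of its 8 tested genes, 3 rose and 0 fell in ZRPF against PF: *Shisa9* by 0.52 ± 0.10, *Cacng3* by 0.55 ± 0.12 and *Nptxr* by 0.31 ± 0.09. In ZR against ZD 4 of 8 rose and 0 fell, *Shisa9* by 0.54 ± 0.10, *Cacng2*, which carries AMPA receptors to the synapse as stargazin, by 0.41 ± 0.10, *Cacng3* by 0.37 ± 0.12 and *Nptxr* by 0.29 ± 0.09. The median over the 8 genes of this list was 0.30 in ZRPF against PF and 0.32 in ZR against ZD. Of 14 excitatory scaffold genes 3 rose in ZRPF against PF and 4 in ZR against ZD, with 0 falling, and the median over the 14 genes was 0.05 and 0.09. *Dlgap3* rose by 0.77 ± 0.13 and 0.58 ± 0.13, *Grip2*, which binds AMPA receptors, by 0.66 ± 0.13 and 0.70 ± 0.13, *Shank2* by 0.27 ± 0.06 in both, and *Shank3* by 0.87 ± 0.18 in ZR against ZD. Of 7 inhibitory scaffold genes *Iqsec3*, a partner of gephyrin, rose in both, by 0.49 ± 0.09 and 0.32 ± 0.09. *Slc12a5*, the chloride exporter that makes GABA-A receptors inhibitory, rose in both, by 0.33 ± 0.07 and 0.25 ± 0.07, and *Slc12a2*, the chloride importer, fell in ZRPF against PF (-0.26 ± 0.08). Of 11 glutamate synthesis and transport genes, 1 fell in ZRPF against PF and 2 in ZR against ZD, with 0 rising. These were the transaminase genes, *Got1* in both (-0.31 ± 0.07 and -0.26 ± 0.07) and *Got2* in ZR against ZD (-0.24 ± 0.07). Of 2 synaptic zinc genes, *Slc39a10* fell in ZR against ZD (-0.36 ± 0.07). None of 4 GABA synthesis and transport genes and none of 2 glycine receptor genes passed in either comparison. Of the general neuronal markers, whose summed signal was 65608 to 73370 in PF and 70389 to 77301 in ZRPF, 2 of 11 rose and 1 fell in ZRPF against PF. In ZR against ZD 3 of 11 rose and 0 fell (summed signal 65662 to 71816 in ZD, 69592 to 75532 in ZR), namely *Syn1* by 0.90 ± 0.09, *Uchl1* by 0.32 ± 0.07 and *Elavl4* by 0.31 ± 0.07. The part of the neuronal markers in the receptor rises was not tested.

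The 15 receptor genes below the filter were *Gabra3*, *Gabra6*, *Gabre*, *Gabrg3*, *Gabrp*, *Gabrq*, *Gabrr1*, *Gabrr2*, *Gabrr3*, *Grik3*, *Grid1*, *Grin2d*, *Grin3b*, *Grm6* and *Grm7*. Their group means lay under the filter in all 4 groups, except for *Gabre* (6.53 to 7.36) and *Grin2d* (6.83 to 7.57). Fitted with no filter, none of the 15 passed in ZD against PF or in ZR against ZRPF. *Grin2d*, an NMDA subunit of thalamic and hypothalamic neurons, read 6.78, 6.84, 6.88 and 6.92 in PF, 6.70, 6.81, 6.82 and 7.0 in ZD, 7.50, 7.72, 7.27 and 7.80 in ZRPF and 7.75, 7.48, 7.58 and 7.42 in ZR. All its 16-day arrays were above all its 10-day arrays, and without a filter it rose by 0.71 ± 0.14 (adjusted p = 0.00348) and 0.72 ± 0.14 (adjusted p = 0.00334) by limma. Its 10-day signals, 110 to 121 in PF and 104 to 128 in ZD, all lay under the filter of 163. Without a filter 2 of the 15 genes passed in ZRPF against PF and 1 in ZR against ZD. Over all probe sets 2460 and 2579 of 31042 did so. A rho gene, *Gabrr1*, also passed without a filter in ZRPF against PF, but its signals of 19 to 44 in PF and 2 to 16 in ZRPF were far below the filter of 163, and no direction is drawn from it. Both genes were named after their values were seen.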

How the data were processed

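The deposited values were linear probe-set intensities made by the authors with MAS5, per the submitters' processing notes; the version is not given in the sources used here. The trimmed means (2% off each end) were 500.13 to 500.15 on all arrays and the medians 157 to 173. Intensities were taken as log2 with no further normalization. Probe sets with a mean log2 signal at or above 7.35, the median of non-control probe sets, were tested (15521). All 16 arrays entered 1 limma fit (limma 3.58.1, R 4.3.3; intensity trend), with Benjamini-Hochberg adjustment over all tested probe sets and a threshold of 0.05; errors are SE unless stated. The steps were tested on simulated data. Array values are given for receptor genes past the threshold in a contrast, for the 4 of smallest p where fewer passed, and for *Grin1*, *Grin2a*, *Grin2b* and *Gria2*; from each gene list, for genes past the threshold or otherwise the 2 of smallest p. Other receptor genes are given by class. The receptor genes and the lists were chosen with earlier results of these data known. Genes were read from single-gene probe sets, so 436 with several genes and 9780 without one were unused. The number of arrays limits the precision.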

Additional observations from a re-analysis of the deposited data

Results flagged for a closer look

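The array values of 18 receptor genes were examined for single arrays that stood apart from the other 3 of their group (Dixon's criterion at 0.829). Of 72 groups examined, 5 held such an array, and chance alone gives about 1 in 20 groups. *Grin3a* held a pair of them, both low: PF rat 6 at a log2 signal of 7.17, against 7.46 to 7.49 in the other PF rats, and ZD rat 9 at 6.99, against 7.59 to 7.69 in the other ZD rats. *Grm2* in ZRPF rat 4 was 7.74, against 8.57 to 8.73. *Gria2* in ZR rat 15 was 12.28, against 12.13 to 12.15. *Grin2b* in ZR rat 7 was 8.56, against 8.11 to 8.18.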

How the results depend on the processing

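The count of receptor genes past the threshold stayed at 0 in ZD against PF, ZR against ZRPF, the interaction and the mean of both under the 22, 21, 29 and 29 alternatives run, those leaving out 1 array included (0 to 0). In ZRPF against PF the count of 7 became 3 among the 10348 brightest probe sets (16 receptor genes tested). That set starts at a mean log2 signal of 8.60, so *Gabra2* (8.24), *Grin3a* (7.83), *Grm2* (8.12) and *Grik5* (8.54) were not in it. The 3 that passed there were *Gabbr1*, *Grin1* and *Grm4*. The count was 4 with the Gapdh 3 prime to 5 prime ratio as a covariate, 3 with the hypothalamus markers and 0 with the actin ratio. With 1 array left out it was 6 to 8. In ZR against ZD the count of 7 became 4 when only the arrays of the compared groups were fitted, 3 with the Gapdh ratio, 4 with the hypothalamus markers, 0 with the actin ratio, 4 without ZD rats 8 and 9, and 5 to 7 with 1 array left out. Over all probe sets the actin ratio took the calls from 2430 to 7 and from 2692 to 17, and the Gapdh ratio to 771 and 786. The alternatives with the actin ratio, the hypothalamus markers, rats 2, 4 and 6 without a block, and no ZD rats 8 and 9 were chosen after seeing the data. Beyond fewer probe sets or arrays, the cause of these shifts was not tested. *Gabra2* and *Grin3a* lost their calls only with the actin ratio, of 22 alternatives in ZRPF against PF and 21 in ZR against ZD. PF and ZRPF rats share the numbers 2, 4 and 6, and the labels do not say whether the numbers pair rats. Deviations of the same-numbered rats correlated at 0.0789, 0.0198 and 0.0351. Those of rats with different numbers ran from -0.0956 to 0.0783. Correlations this near 0 cannot decide whether the rats were paired. With the rat number as a replicate block 4 receptor genes passed, and without the block on the same arrays 5. Differences near 0 changed sign. *Grin2a* in ZD against PF became 0.088 with array weights, 0.036 with the thalamus markers, 0.044 with the actin ratio, 0.359 without ZD rats 8 and 9, and -0.152 to 0.128 with 1 array left out. *Grin2b* in ZD against PF became -0.022 (quantile normalization), -0.041 (median centring), -0.007 (array weights), -0.003 (Gapdh ratio), -0.017 (actin ratio) and -0.136 to 0.072 with 1 array left out. In ZR against ZRPF, *Grin1* ran from -0.119 to 0.03 and *Grin2b* from -0.102 to 0.224 with 1 array left out, and *Grin1* became 0.0 with the thalamus markers.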
